A study of Mus musculus with 8 samples.

Results

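The Nodal signalling genes were followed through mitotic exit in mouse induced pluripotent stem cells. They were chosen by symbol, as Nodal, Lefty1, Lefty2, Tdgf1, Smad7 and Skil. Of these 6 genes, 5 were among the 14861 genes of the table; Lefty2 was not analysed here. Nascent transcription was measured by PRO-seq, which labels the RNA of polymerases engaged in transcription in isolated nuclei. The cells are 1 clonal line that carries the FUCCI2 cell-cycle reporter. All groups were cultured on irradiated feeder cells with serum, LIF, a MEK inhibitor and a GSK3 inhibitor. The mitotic group was held for 6 h in nocodazole (200 ng/ml), a microtubule poison, and collected by shake-off. Early G1 and late G1 are cells treated in the same way and then released for 1 h and 3 h. The columns carry only the names early and late G1 and were matched to the release times by meaning. The asynchronous group was untreated and cycling. The labels list 2 libraries per group, but the table merges them into a single value for each gene in each group. The difference between replicates is therefore unknown, no test was possible, and values that lie close to each other cannot be ordered.

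Nodal is a secreted ligand of the TGF-beta family. It signals through activin receptors together with the coreceptor CRIPTO, the product of Tdgf1, and the receptors phosphorylate SMAD2 and SMAD3, which enter the nucleus with SMAD4. The pathway induces its own inhibitors: the secreted LEFTY proteins block the ligand and the coreceptor, SMAD7 blocks the receptors, and SnoN, the product of Skil, binds SMADs on chromatin and represses their target genes. In the mouse embryo Nodal patterns the epiblast and specifies mesoderm and endoderm, and in pluripotent cells in culture the ligand, the coreceptor and the LEFTY genes are transcribed.

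The sequences around the starts of the ligand gene and the coreceptor gene are shown because they are the 2 of the 5 genes for which a RefSeq promoter window (GRCm38.p6) was matched. Each window runs from 250 bases before the annotated start to 50 bases after it. Capitals mark matches to the motifs named after the sequences.
Nodal, chr10:61417722-61418021, plus strand: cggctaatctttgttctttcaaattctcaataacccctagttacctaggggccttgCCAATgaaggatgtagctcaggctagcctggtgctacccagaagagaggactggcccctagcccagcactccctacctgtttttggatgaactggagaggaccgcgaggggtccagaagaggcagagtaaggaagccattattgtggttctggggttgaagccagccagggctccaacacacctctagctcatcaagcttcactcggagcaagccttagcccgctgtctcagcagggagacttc
Tdgf1, chr9:110946109-110946408, minus strand: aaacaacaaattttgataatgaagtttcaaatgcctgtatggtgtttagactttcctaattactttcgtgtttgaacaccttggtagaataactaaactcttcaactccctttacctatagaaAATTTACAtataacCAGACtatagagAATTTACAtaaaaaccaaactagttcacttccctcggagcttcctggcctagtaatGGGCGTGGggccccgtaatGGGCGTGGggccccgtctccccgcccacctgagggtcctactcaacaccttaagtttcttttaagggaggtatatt
The motifs searched, on both strands, were CAGAC (SMAD proteins), AATCCACA (FOXH1, the forkhead partner of SMAD2), its looser form AATNNACA, GGGNGTGG (Kruppel-like factors), CCAAT (the CCAAT box) and TATAAA (the TATA box). No match in these windows overlapped another, although any AATCCACA would also match the looser form. The Tdgf1 window held GGGCGTGG at -45 to -38 and again at -26 to -19 relative to the start, CAGAC at -113 to -109, and AATTTACA, a match to the looser FOXH1 form alone, at -127 to -120 and at -101 to -94. The Nodal window held CCAAT at -194 to -190. Of 32544 mouse promoter windows of this length, 17.7% held GGGNGTGG, 49.5% CAGAC, 37.4% CCAAT, 13.6% TATAAA, 12.1% AATNNACA and 0.854% AATCCACA. The Nodal window was 54.0% G and C, and the Tdgf1 window 41.7%. The start used in the table for Tdgf1 lies 64 bp downstream of the RefSeq start and so just outside the window, while that of Nodal is the RefSeq start itself.

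The other genes of the table as a whole set the frame for these values. The columns summed to 16863 (mitotic), 361203 (early G1), 326086 (late G1) and 309144 (asynchronous), and how the authors scaled the columns is not known. The median gene had 5.36% of its asynchronous signal in mitosis, 124% in early G1 and 116% in late G1. Of 8 pluripotent stem cell markers 7 were in the table, and their summed signal was 45.1 in mitosis, 1068 in early G1, then 984 in late G1, against 897 in the asynchronous group. Of 7 mesendoderm markers, genes of cells that have left pluripotency towards mesoderm or endoderm, 4 were in the table, with summed signals of 1.87, 35.6, 37.6 and 41.8 in the same order. Of 15 markers of fibroblasts, the usual feeder cells, 10 were in the table, with summed signals of 5.05, 148, 141 and 93.6 in that order. Folds below are ratios of signals; log2 ratios are of (signal + 0.1), which understates the change of weakly transcribed genes.

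Nodal, the ligand gene (chromosome 10, 61417972 to 61425338 in GRCm38), had a signal of 5.43 in mitotic cells, 161 in early G1, then 181 in late G1, against 93.4 in asynchronous cells. It was thus above its asynchronous signal at both times after release, at 172% in early G1 and 193% in late G1. Both values fell short of a 2-fold difference, with log2 ratios to asynchronous cells of 0.78 and 0.95. Relative to the median gene these ratios were 0.48 and 0.74 higher. From the mitotic level the signal was 29.6-fold higher in early G1, and 84.4% of all genes had a smaller ratio. Late G1 and early G1 differed by 1.13-fold at Nodal.

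Tdgf1 (chromosome 9, 110939608 to 110946158), which encodes the coreceptor that Nodal needs, had 4.16 in mitotic cells, 50.3 in early G1, then 81.2 in late G1, against 94.9 in asynchronous cells. Its signal stood at 53.0% of the asynchronous level in early G1 and 85.6% in late G1. It was the gene with the least mitotic signal of the 5 relative to asynchronous cells, at 4.39%. In early G1 it was 12.1-fold above mitosis, a smaller ratio than that of the median gene by 0.65 on the log2 scale. In late G1 over early G1 the ratio was 1.62-fold, where the median gene had a log2 ratio of -0.08.

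Lefty1, the gene of the secreted inhibitor (chromosome 1, 180935022 to 180938401), had 0.170 in mitotic cells, 0.462 in early G1, then 1.25 in late G1, against 3.07 in asynchronous cells. It returned least of the 5 genes, with 15.1% of its asynchronous signal in early G1 and 40.8% in late G1. In early G1 over asynchronous cells only 1.04% of genes had a lower ratio, and in early G1 over mitosis only 0.761% did. Between the releases it was 2.71-fold higher in late G1 than in early G1, above 89.4% of genes. The mean signal of Lefty1 over the groups was under 2.5, so its ratios move with the pseudocount: with 0.5 in place of 0.1 the log2 ratio was 0.52 for early G1 over mitosis in place of 1.06, and 0.86 for late over early G1 in place of 1.27. Against asynchronous cells it was -1.89 for early G1 in place of -2.50 and -2.41 for mitosis in place of -3.55, and quantile normalization put late G1 at -2.04 in place of -1.23. Lefty1 has a closely similar paralogue, Lefty2, and no source used here says how reads shared by such copies were counted; its RefSeq span also overlaps Gm39715.

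Smad7 (chromosome 18, 75367365 to 75395935), which encodes the inhibitory SMAD, had 3.13 in mitotic cells, 65.6 in early G1, then 68.3 in late G1, against 40.6 in asynchronous cells. It stood above its asynchronous signal after release, at 161% in early G1 and 168% in late G1, and in early G1 was 20.9-fold above mitosis. Its log2 ratios to asynchronous cells, 0.69 and 0.75, were higher than those of the median gene by 0.39 and 0.54. Gm41776 overlaps Smad7 in RefSeq.

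Skil (chromosome 3, 31095058 to 31122923), the gene of the SMAD corepressor SnoN, had 1.66 in mitotic cells, 20.8 in early G1, then 9.44 in late G1, against 18.0 in asynchronous cells. It was the only one of the 5 genes with a lower signal in late G1 than in early G1, by 2.20-fold (log2 ratio -1.13), and 5.02% of all genes had a lower ratio. In early G1 it was at 116% of its asynchronous signal, below the 124% of the median gene. That log2 ratio of 0.21 was -0.11 with equal column medians and -0.20 with quantile normalization, so its side of the asynchronous level depends on the scaling. In late G1 it was at 52.6%, where 6.06% of genes had a lower ratio. Skil also had the most mitotic signal of the 5 relative to asynchronous cells, at 9.26%, against 5.36% for the median gene.

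**Figure D1:**
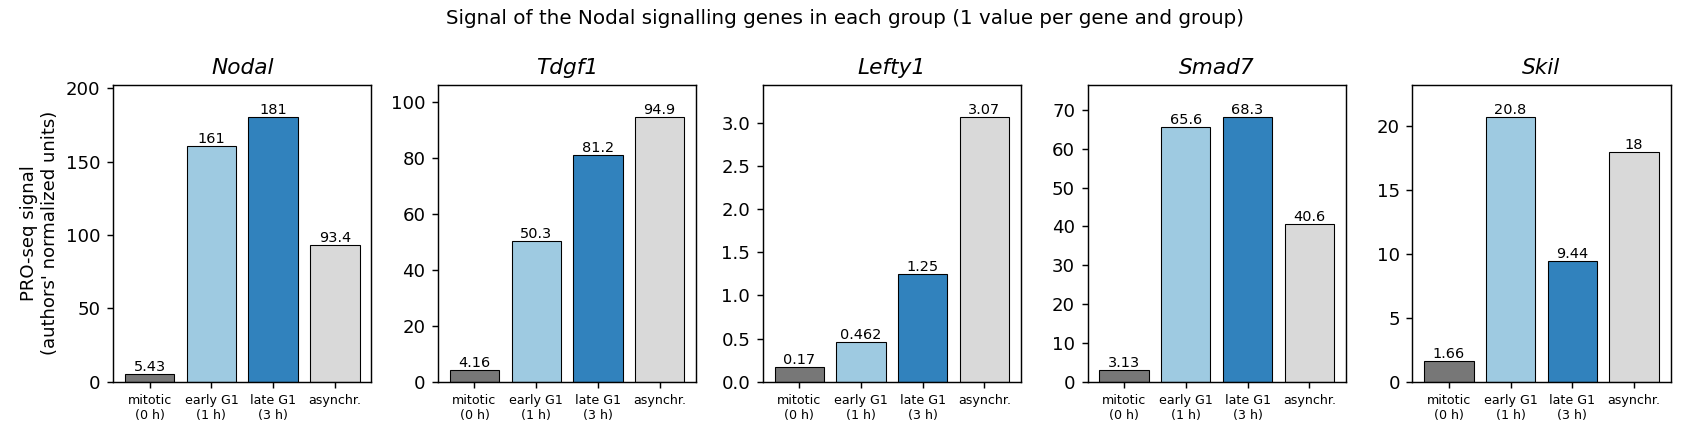
Bars give the authors' normalized PRO-seq signal of each gene in mitotic, early G1, late G1 and asynchronous cells, 1 combined value per gene and group with no error, on an axis that starts at 0 and differs between genes. Nodal and Smad7 stand above their asynchronous bars at both times after release, Tdgf1 and Lefty1 below theirs, and Skil is lower in late G1 than in early G1.

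Counted at a threshold of 2-fold, all 5 genes were lower in mitotic than in asynchronous cells, as were 99.1% of all genes tested, and none was higher (0.0208% of all genes). All 5 passed 2-fold upwards in early G1 over mitosis, as did 99.3% of all genes, and none downwards (0.00692% of all genes). In early G1 over asynchronous cells none was higher by 2-fold (17.7% of all genes were) and 1, Lefty1, was lower (9.53% of all genes). In late G1 over early G1, 1 gene, Lefty1, was higher by 2-fold (15.1% of all genes) and 1, Skil, was lower (7.52% of all genes). In late G1 over asynchronous cells none was higher by 2-fold (16.9% of all genes) and 1, Lefty1, was lower (5.14% of all genes). With quantile normalization of the columns neither gene passed 2-fold in late over early G1 (log2 0.06 for Lefty1 and -0.98 for Skil). Over all genes 1583 of 14699 were then higher and 1212 lower. With equal medians or quantiles Tdgf1 passed 2-fold downwards in early G1 over asynchronous cells and Skil in late G1 over asynchronous cells. The genes lower in early G1 then numbered 2169 (equal medians) and 1638 (quantiles) of 14661. In late G1 they numbered 1157 and 1472 of 14695. The counts in mitosis and early G1 over mitosis are those of nearly every gene, and they rest on the authors' scaling of the columns. The comparisons with asynchronous cells share 1 column and are not independent of each other. Over the 5 genes the median log2 ratio was 0.21 in early G1 over asynchronous cells and -0.22 in late G1 over asynchronous cells, beside 0.30 and 0.21 over all genes tested. The first median was -0.11 with equal medians and -0.20 with quantile normalization, and the second was 0.26 over the 4 genes left by a minimum mean of 2.5.

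**Figure D2:**
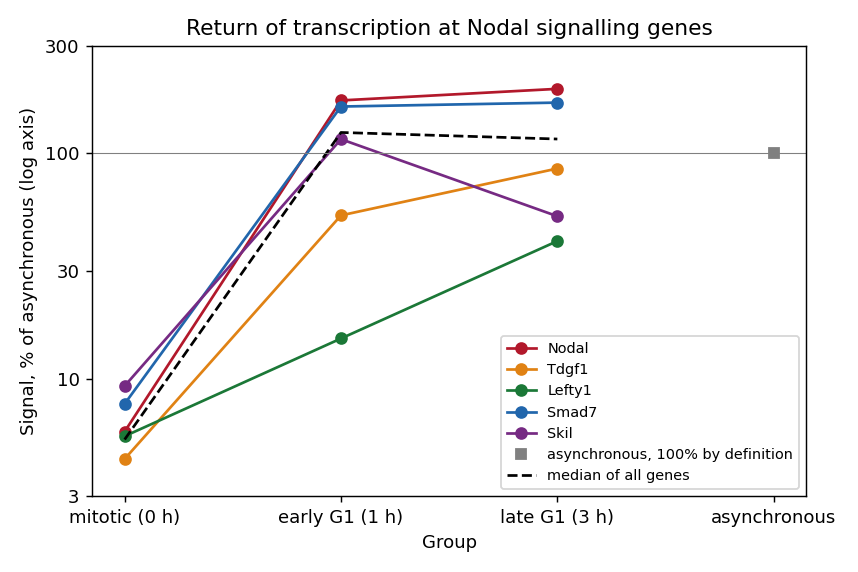
Signal of each gene in mitotic, early G1 and late G1 cells as a percentage of its asynchronous signal, on a log axis, with the median of all genes as a dashed line; each point is 1 combined value with no error. After release Nodal and Smad7 lay above the median gene at both times, while Tdgf1, Lefty1 and Skil lay below it at both, with Lefty1 at 15.1% and then 40.8%.

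The 5 genes were also compared with each other. Expressed relative to asynchronous cells, the log2 values of Nodal and Smad7 differed by at most 0.43 in any group, and this was the closest of the 10 pairs. Nodal and Lefty1 were the farthest apart: in early G1 their ratios to asynchronous cells, taken with the pseudocount, differed by 3.28 on the log2 scale. Nodal and its coreceptor gene Tdgf1 differed by 1.69 in the same group, and the antagonist genes Smad7 and Skil by 1.67 in late G1.

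**Figure D3:**
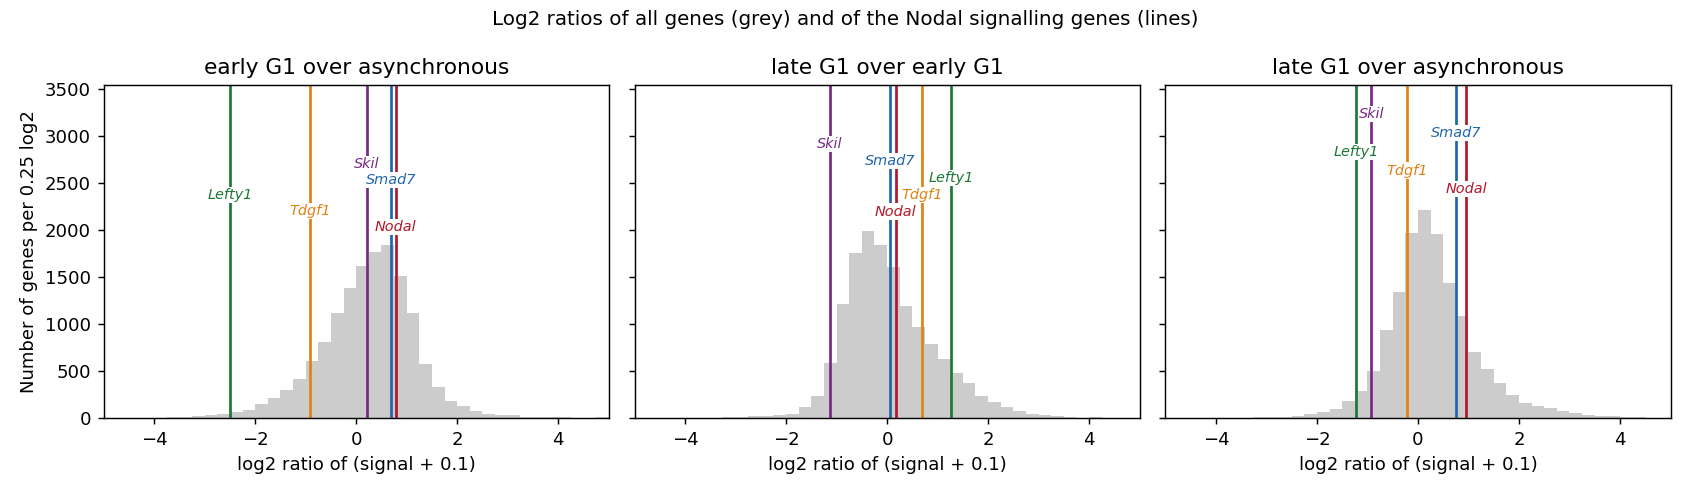
Grey bars count all genes by their log2 ratio of (signal + 0.1), in steps of 0.25, for early G1 over asynchronous, late G1 over early G1 and late G1 over asynchronous cells; coloured lines mark the 5 genes, and genes beyond the axis are counted in its end bars. Lefty1 lies in the lower tail of both panels set against asynchronous cells, and Skil in that of both panels of late G1.

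The authors' deposited table gives each gene 1 of 4 temporal classes, and how these were made is not stated. They placed Nodal in the Transient class, Smad7 in Early_Spike, Skil in Early_Plateau, and Tdgf1 and Lefty1 in Gradual, classes that hold 24.7%, 33.6%, 26.3% and 15.4% of the table. Several of the 5 genes lay at or beyond the edge of their class. Lefty1, at 15.1% of asynchronous in early G1 and 40.8% in late G1, was under the lower quartile of the Gradual genes at both times (34.7% and 48.6%). Tdgf1 lay inside the quartiles of Gradual in early G1 and just above the upper one in late G1 (83.6%). Skil, at 52.6% in late G1, was below the lower quartile of Early_Plateau (76.9%). Smad7, at 161% and 168%, lay just under the lower quartile of Early_Spike in early G1 (163.3%) and just above the upper one in late G1 (163.0%). Nodal, at 172% in early G1, was above the upper quartile of Transient (156%). The classes may rest on these same values, so this is a description.

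Genes with the most similar course were sought among well transcribed genes, by the largest difference in log2 ratio to asynchronous cells over mitotic, early G1 and late G1 cells. For Nodal these were Cars2, a mitochondrial tRNA synthetase gene (0.05), Spag4 (0.08) and Fam168b (0.08), and 86 genes lay within 0.25. For Smad7 they were Galnt1 (0.04), Mettl21a (0.05) and Ost4 (0.06), with 148 genes within 0.25. Tdgf1 was closest to Slc27a1 (0.06), Cpsf4l (0.09) and Sin3b, a corepressor gene (0.13), with 39 genes that near. The course of Skil was less common, with Fmr1, the fragile X gene (0.17), Arhgap11a (0.20) and Clp1 (0.23) nearest and 4 genes within 0.25. No gene came within 0.25 of Lefty1, whose nearest were Mki67, a proliferation marker gene (0.51), Chrnb1, an acetylcholine receptor subunit gene (0.65), and Prss33, a serine protease gene (0.66). Lefty1 itself was below the signal required of these genes, so it was compared only with genes transcribed more strongly. The pseudocount also compresses its ratios more than theirs, so the lack of a near match does not show a rare course. Likeness over so few values, each without a replicate, is common by itself and is given only as a description.

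The genes that flank the 5 on the chromosome were also read. Tmem63a, a Gradual gene whose start lies 7.32 kb from that of Lefty1, had 0.281 in mitotic cells, 2.42 in early G1, then 3.90 in late G1, against 8.37 in asynchronous cells. Its ratio of early G1 to asynchronous cells was not as low as that of Lefty1 (log2 -1.75 for Tmem63a and -2.50 for Lefty1). Lrrc2, which starts 5.45 kb from Tdgf1 on the opposite strand, had 21.6 in early G1, then 22.8 in late G1, against 27.9 in asynchronous cells. Nodal is flanked by Pald1 and Eif4ebp2, whose starts lie 34.4 and 34.7 kb away. Eif4ebp2 had 69.1 in early G1, then 37.4 in late G1, against 36.4 in asynchronous cells, so unlike Nodal it was lower in late G1 than in early G1. Prkci, 99.3 kb from Skil, had 25.9 in early G1, then 17.5 in late G1, against 15.3 in asynchronous cells.

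The rest of the pathway was read from lists grouped by role: 53 further genes of Nodal, activin and TGF-beta signalling, of which 48 were in the table. In early G1 over asynchronous cells 10 of the 48 were higher by 2-fold or more and 7 lower. These are 20.8% and 14.6%, beside 17.7% and 9.53% of all genes. The numbers in late G1 over early G1 were 11 and 3, or 22.9% and 6.25%, beside 15.1% and 7.52% of all genes. They were 8 and 1 in late G1 over asynchronous cells, or 16.7% and 2.08%, beside 16.9% and 5.14% of all genes. The medians of the 48 differed from those of all genes by 0.13 or less on the log2 scale in these comparisons.

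Among ligand genes, the inhibin and activin subunit genes were low in early G1. In early G1 over asynchronous cells, 6 of the 11 listed ligand and processing genes beside Nodal were 2-fold lower and 1 was higher. Among all genes 9.53% were lower and 17.7% higher. The 6 were Inhbb, Inhbc, Inhbe, Inha, Tgfb3 and Furin. In late over early G1, 6 were higher and none lower (15.1% and 7.52% of all genes), Inhbb, Inhbc, Inhbe and Inha among them. Inhbb, the activin B subunit gene, had 0.694 in mitotic cells, 4.29 in early G1, then 11.4 in late G1, against 21.2 in asynchronous cells. Inhbe and Inhbc, which are neighbours on chromosome 10, had the lowest ratios of early G1 to asynchronous cells among the 48 genes (log2 -2.46 for Inhbe and -2.54 for Inhbc): 6.53 in early G1 and 36.4 in asynchronous cells for Inhbe, and 0.842 and 5.37 for Inhbc. Among the pathway genes not listed at 0 in mitosis, Inhbe and Inha also had the lowest ratios of mitotic to asynchronous cells (log2 -6.41 and -5.51). In late G1 over asynchronous cells the lowest ratios among the 48 were those of Gsc (log2 -1.48) and Inhbe (-0.98).

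Gdf3, a Nodal-related ligand gene, stayed closer to its asynchronous signal, at 87.8% in early G1 and 88.9% in late G1. Gdf1, whose product pairs with Nodal, was at 60.9% and 63.9%, but its span overlaps Cers1 and Upf1, so part of the signal may belong to those genes. Furin, the gene of a protease that matures the Nodal precursor, was at 47.8% and 58.8%, while Pcsk6, which encodes another such protease, was at 94.4% and 194%. The TGF-beta ligand genes diverged. Tgfb1 had 5.35 in early G1, then 2.81 in late G1, against 5.02 in asynchronous cells. Tgfb2 had 6.34 in early G1, then 4.04 in late G1, against 0.574 in asynchronous cells, the highest ratio of early G1 to asynchronous cells among the 48 (log2 3.26). That asynchronous signal is low, so the size of the ratio depends on the pseudocount, and Tgfb2 overlaps Gm26169 and Gm35655. Tgfb3 had 0.650 in early G1, then 7.34 in late G1, against 2.05 in asynchronous cells, and among the 48 had the highest ratio of late to early G1 (log2 3.31) and the lowest of early G1 to mitosis (log2 1.196).

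Of the 8 receptor and coreceptor genes beside Tdgf1, 2 were higher by 2-fold or more in early G1 than in asynchronous cells and none lower, beside 17.7% and 9.53% of all genes. Acvr2a, a type II receptor gene for activin and Nodal, had 19.2 in early G1, then 10.5 in late G1, against 4.91 in asynchronous cells; Tgfbr1 had 9.28, 5.76 and 2.97. Acvr2a overlaps Orc4 in RefSeq. The type I receptor gene Acvr1b, which serves Nodal, stood at 86.3% of asynchronous in early G1 and 112% in late G1. Cfc1, the gene of a second CRIPTO-family coreceptor, was at 121% and 62.0%, unlike Tdgf1 at 53.0% and 85.6%. Among the pathway genes not listed at 0 in mitosis, it and Rnf111 had the highest ratios of early G1 to mitosis (log2 5.22 for Cfc1 and 5.23 for Rnf111), though Cfc1 overlaps Prss40. The mitotic signal of Cfc1, 0.0572, is under the pseudocount of 0.1, so the size and rank of its ratio depend on it.

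The SMAD genes that carry the signal stood above the asynchronous level in early G1: Smad2 at 173%, Smad3 at 174% and Smad4 at 196%, none of them past 2-fold on the log2 scale with the pseudocount. The median gene was at 124% there and the upper quartile of all genes at 178%, above Smad2 and Smad3. In late G1 Smad3 was at 256%, Smad2 at 139% and Smad4 at 100.3%, beside 116% for the median gene. Foxh1, the gene of their DNA-binding partner, stood lower, at 58.1% in early G1 and 63.1% in late G1, and its span overlaps Kifc2. Another list grouped genes of intracellular feedback and SMAD antagonists, without sorting them by whether each lowers or raises the signal. Among its 10 genes beside Smad7 and Skil, 3 were higher by 2-fold or more in early G1 than in asynchronous cells and none lower (17.7% and 9.53% of all genes). They were Smurf2 and Rnf111, which encode ubiquitin ligases, and Ppm1a, a phosphatase gene. Ski, the gene most related to Skil, had 22.4 in early G1, then 27.1 in late G1, against 14.6 in asynchronous cells, so it did not share the lower late G1 signal of Skil. Pmepa1, a feedback gene induced by SMADs, had 26.2, 33.4 and 16.8.

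The extremes of the lists lay partly among genes that answer Nodal or activin in the embryo. Lhx1 had 0.172 in mitotic cells, 3.42 in early G1, then 20.4 in late G1, against 0.444 in asynchronous cells, the highest ratio of late G1 to asynchronous cells among the 48 (log2 5.23). Fgf8 had 0.289, 3.76, 0.481 and 0.415, and was the 1 listed gene within 2-fold of its asynchronous signal in mitosis (Lhx1, next to it, was just past 2-fold lower). Gsc was listed at 0 in mitosis and had 9.92 in early G1, then 4.13 in late G1, against 11.7 in asynchronous cells; with Fgf8 it had the lowest ratio of late to early G1. Fstl3, the gene of a follistatin-like inhibitor, had one of the lowest ratios of early G1 to mitosis, with 1.82 in early G1 and 0.565 in mitosis, and it overlaps Prss57.

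Some fibroblast markers were also higher in late than in early G1. Of the 10 in the table, 6 were higher by 2-fold or more there and none lower (15.1% and 7.52% of all genes), with a median log2 ratio of 1.17. Their summed signal did not rise, at 148 in early G1 and 141 in late G1. In asynchronous cells 1 marker held 53.4 of the sum of 93.6. In early G1 over asynchronous cells 3 markers were higher and 3 lower (17.7% and 9.53% of all genes). In late G1 over asynchronous cells 4 were higher and 1 lower (16.9% and 5.14% of all genes). Twist1 was the 1 marker listed at 0 in any column. Fibroblasts also use TGF-beta signalling, and Tgfb3, Tgfbr2 and Fstl3 were among the 11 pathway genes that were higher by 2-fold or more in late than in early G1. The part of feeder cells in these values, and in those of Lefty1 between the releases, was not tested. Fewer cells transcribing a gene and less transcription per cell cannot be told apart in these data.

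**Figure D4:**
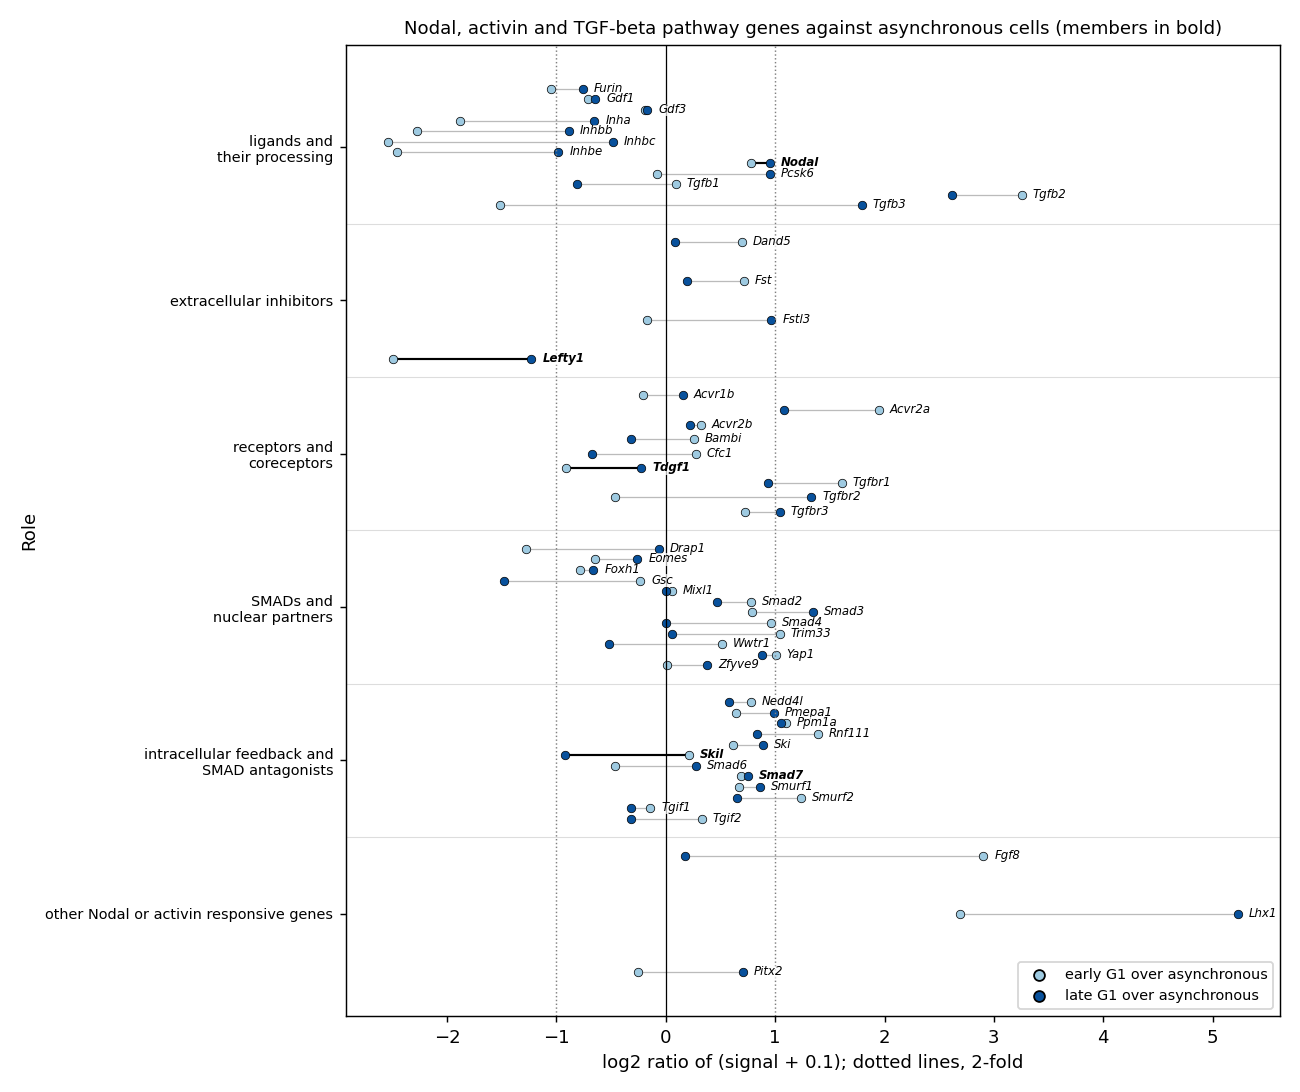
Log2 ratios of (signal + 0.1) to asynchronous cells in early G1 (light points) and late G1 (dark points) for the 5 genes, in bold, and 47 of the 48 other pathway genes, grouped by role; each point is 1 value with no error. Lefty1 and the inhibin and activin subunit genes lie to the left in early G1 and closer to 0 in late G1, while Skil lies near 0 in early G1 and to the left in late G1.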

How the data were processed

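The 8 PRO-seq libraries fall into 4 groups of 2. The deposited table holds 1 signal per gene and group, which the authors had normalized, per the file headers. The submitters' processing notes name SAMtools, Picard, Bowtie2 and cutadapt and the build GRCm38. No source used here gives the pooling, the scaling, the use of strand or the assignment to genes, and depth is unknown. The temporal class, a text label and another kind of value, was deposited by the authors in the same table.

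From these signals log2 ratios of (signal + 0.1) were computed with Python 3.11.15 and pandas 2.3.3 for 5 comparisons, among genes with a mean signal of at least 0.5 (14814 of 14861). Genes listed at 0 in a column used were left out of that ratio. A gene counted as higher or lower at 2-fold. The calculation was checked on simulated data. With 1 column per group no test, SD or p-value was possible.

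The members and lists were chosen with earlier results of these data known. Named by rule were the members, the 2 highest and 2 lowest listed pathway genes per comparison, the 3 genes of most similar course among those at or above the median mean signal and without a predicted name, and the nearest start on either side. Other pathway genes were named for their role; some genes are counted but not reported by name here. Alternatives covered the pseudocount, the filter, genes at 0, equal medians and quantile normalization.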

Additional observations from a re-analysis of the deposited data

How the results depend on the processing

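No paired analysis was possible because the table has 1 column per group. The direction of the comparisons with mitosis rests on the authors' scaling for most of the 5 genes, since equal column medians and quantile normalization remove the general difference by construction. With equal medians 0 of the 5 genes were 2-fold lower in mitotic than in asynchronous cells (log2 0.16 for Nodal, 0.0926 for Lefty1, 0.57 for Smad7, 0.83 for Skil, median 0.16), and in early G1 over mitosis 0 were higher and 1 lower (log2 -2.81 for Lefty1, -0.996 for Tdgf1, -0.21 for Smad7, -0.95 for Skil, median -0.95). With quantile normalization these counts were 0, 0 and 1 too (mitotic over asynchronous 0.0465 for Nodal, 0.0679 for Lefty1, 0.40 for Smad7, 0.74 for Skil, median 0.0679; early G1 over mitosis -2.17 for Lefty1, -0.87 for Tdgf1, -0.0825 for Smad7, -0.94 for Skil, median -0.87).

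Both scalings put Tdgf1 past 2-fold beside Lefty1 in early G1 under asynchronous cells (2 genes) and Skil beside Lefty1 in late G1 (2 genes). Over all genes 2169 (equal medians) and 1638 (quantiles) of 14661 were lower in early G1. In late G1 these were 1157 and 1472 of 14695. Quantile normalization left 0 higher and 0 lower in late over early G1 (Lefty1 0.06, Skil -0.98), beside 1583 and 1212 of 14699 genes. A pseudocount of 0.5 left 0 higher in late over early G1 (Lefty1 0.86), beside 1897 of 14699 genes, and put Lefty1 in early G1 over mitosis at 0.52. A minimum mean of 2.5 removed Lefty1, so its counts became 0. Under both scalings Tdgf1 kept its direction in mitotic over asynchronous cells (-0.24 and -0.33), as did Nodal in early G1 over mitosis (0.29 and 0.58). Of the 15 genes of most similar course, 13 were kept by Euclidean distance.

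Counts over all genes moved too. With equal medians 1372 were higher and 1004 lower in mitotic over asynchronous cells, 708 and 1966 in early G1 over mitosis, 1268 and 2169 in early G1 over asynchronous, and 1157 lower in late G1 over asynchronous. With quantile normalization the counts were 1237 and 972, 800 and 1283, 1364 higher, and 1625 and 1472. Under both scalings the genes tested in these comparisons numbered 14444, 14456, 14661 and 14695, in that order. A minimum mean of 2.5 left 925 lower in early G1 over asynchronous, 1255 higher in late over early G1 and 1637 higher in late G1 over asynchronous. The few genes higher in mitosis than in asynchronous cells, and those lower in early G1 than in mitosis, went from 3 and 1 to 5 and 3 with a pseudocount of 0.02 and 31 and 27 with genes at 0 kept; a pseudocount of 0.5 left 0 of the second kind. Depth is unknown, so how precise the low Lefty1 signals are cannot be given.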
